A study of Mus musculus with 6 samples.

Results

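The 9 genes described here are regulators and markers of fat cell formation: Pparg, Cebpa, Cebpb, Cebpd, Lpl, Fabp4, Adipoq, Plin1 and Cd36. They were chosen by name from the 53715 genes listed for each library. Total RNA was sequenced from 3 Wild-type and 3 Fam102a KO cultures of the C57BL/6J strain, labelled as osteoblasts at day 7. Per the methods of the study, such cells are mesenchymal cells taken by enzyme digestion from the skull bones of newborn mice and kept in medium with ascorbic acid, β-glycerophosphate and dexamethasone, so both genotypes had received a synthetic glucocorticoid. The knockout arose from mice with loxP sites around exons 2 and 3 of Fam102a, crossed with mice carrying Cre under the Actb promoter, and is therefore not limited to osteoblasts. The comparison asks how the 9 genes stood in cells without intact Fam102a. The labels do not say whether the 3 libraries of a genotype came from separate animals or cultures, so p-values measure only the spread between these libraries, which may be technical.

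Osteoblasts and adipocytes arise from common mesenchymal precursors. In cultured preadipocytes, C/EBPβ and C/EBPδ appear early after hormonal induction and switch on Pparg and Cebpa, which then maintain each other and activate the genes of lipid uptake, transport and storage. Runx2 directs the osteoblast program in the same precursors, and glucocorticoids can promote either fate.

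Gene reads, which are exon plus intron reads, totalled 12212169 to 21210150 per library, so that 1 read was worth 0.0494 to 0.0848 CPM (read counts put on a common library size, scaled by the trimmed mean of M values). Introns held 52.5, 54.5 and 52.2% of gene reads in Wild-type replicates 1 to 3. In Fam102a KO replicates 1 to 3 they held 46.4, 53.2 and 45.8%. Fam102a had 170, 249 and 244 gene reads in Wild-type replicates 1 to 3 and 185, 260 and 257 in Fam102a KO replicates 1 to 3. Reads over the whole gene include its undeleted exons and introns, and these counts therefore do not check the labels. Its exon reads gave a lower CPM in every Fam102a KO library (124, 206 and 207 against 123, 174 and 157 reads, log2 fold change -0.34, edgeR adjusted p = 0.667). In the other direction, intron reads of Fam102a had a log2 fold change of 0.81 (adjusted p = 0.653).

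Pparg reads were lower in all Fam102a KO libraries than in any Wild-type library, by 1.74-fold on average. The difference did not pass the adjusted test over all genes. The 3 C/EBP genes overlapped between genotypes. So did Lpl, Fabp4 and Cd36. Adipoq and Plin1, markers of mature fat cells, were at or near the detection floor in both genotypes. In numbers, 7 of the 9 genes had enough reads for the test, 2 had a positive and 5 a negative log2 fold change, and none passed an adjusted p of 0.05 in either direction in edgeR's quasi-likelihood test. The share of all 16391 genes tested that passed was 0.0183% higher and 0.0305% lower. Before adjustment, with p under 0.05 as the mark, 0 of the 7 were higher and Pparg (1 of 7) was lower, where all genes gave 2.92% higher and 3.12% lower. The median log2 fold change of the 7 genes was -0.30, beside -0.0009 for all genes tested. In exon reads the counts were again 0 higher and 1 lower (background 3.41% and 3.4% of 13858 genes), with 0 past the adjusted p (background 0.0216% higher and 0.0577% lower).

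**Figure D1:**
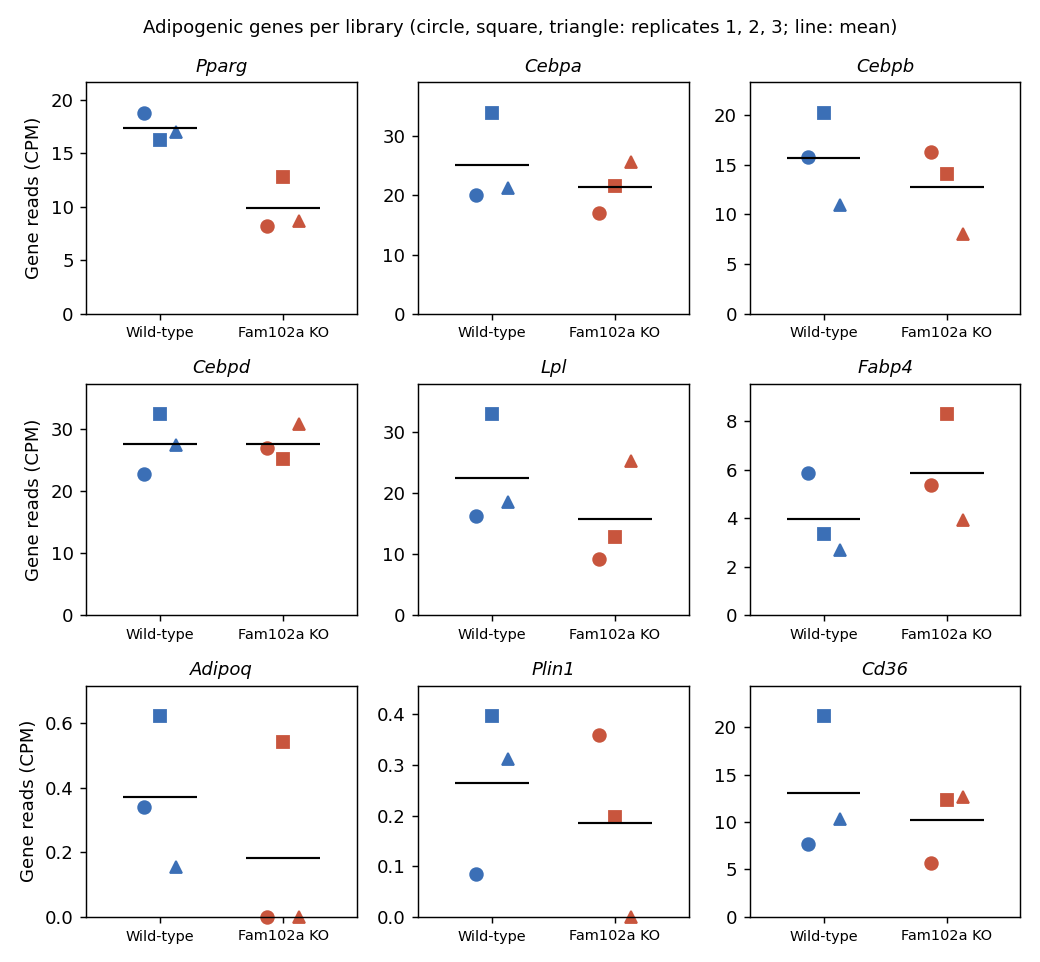
CPM of gene reads of the 9 genes in the 3 Wild-type (blue) and 3 Fam102a KO (red) libraries, with a separate vertical scale for each gene, points for single libraries and a line for the mean. Pparg is the only gene of the 9 whose groups do not overlap: its lowest Wild-type library has 16.3 CPM and its highest Fam102a KO library 12.8 CPM.

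On the length-scaled RPKM deposited for each library (exon reads scaled by exon length and library size), the 3 C/EBP genes had the highest means. The Wild-type mean was 9.88 RPKM ± 2.75 (SD, n = 3) for Cebpb, 9.06 ± 2.55 for Cebpa and 6.97 ± 1.08 for Cebpd. Fabp4 followed with 4.06 RPKM ± 1.72, then Lpl with 2.98 ± 1.08, Pparg with 2.81 ± 0.415 and Cd36 with 2.79 ± 1.74. Every neighbouring pair in this order overlapped in RPKM over the Wild-type libraries, so neighbours did not differ beyond their spread. Cebpb and Cebpa, with lowest Wild-type libraries of 7.02 and 7.36 RPKM, lay above every Wild-type value of Fabp4, Lpl, Pparg and Cd36, the highest of which was 6.03 RPKM for Fabp4. Adipoq at 0.178 RPKM ± 0.145 and Plin1 at 0.0293 ± 0.0272 lay below all Wild-type values of the other 7, and did not overlap each other. Of the genes tested, 14.4% had a higher mean Wild-type RPKM than Cebpb and 40.7% a higher one than Pparg.

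Pparg (ENSMUSG00000000440) encodes the nuclear receptor PPARγ, the central regulator of fat cell formation. It lies at chr6:115360951-115490399 on the plus strand of mm10. The gene is read from several start sites. The downstream promoter, inside the gene, is the one known for the PPARγ2 isoform, which is largely restricted to fat cells, and the upstream ones for PPARγ1. The reference promoter set of RefSeq (GRCm38.p6, 250 bases before to 50 after each start) holds 3 windows for Pparg, which are shown because the read counts add up transcripts from all of them and cannot assign the difference to any. Capitals mark matches on either strand to any of 6 short motifs: the TATA box TATAAA, the CCAAT box, the C/EBP core TTGCNNAA, the nuclear receptor half-site AGGTCA, the glucocorticoid receptor half-site TGTTCT and the RUNX site TGTGGT.
Pparg upstream window, chr6:115360894-115361193, plus strand: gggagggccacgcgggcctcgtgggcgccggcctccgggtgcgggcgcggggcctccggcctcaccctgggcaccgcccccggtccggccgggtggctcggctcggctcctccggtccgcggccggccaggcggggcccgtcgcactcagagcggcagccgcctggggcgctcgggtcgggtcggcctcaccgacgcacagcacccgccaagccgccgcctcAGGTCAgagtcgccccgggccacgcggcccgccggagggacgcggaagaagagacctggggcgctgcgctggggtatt
Pparg middle window, chr6:115362099-115362398, plus strand: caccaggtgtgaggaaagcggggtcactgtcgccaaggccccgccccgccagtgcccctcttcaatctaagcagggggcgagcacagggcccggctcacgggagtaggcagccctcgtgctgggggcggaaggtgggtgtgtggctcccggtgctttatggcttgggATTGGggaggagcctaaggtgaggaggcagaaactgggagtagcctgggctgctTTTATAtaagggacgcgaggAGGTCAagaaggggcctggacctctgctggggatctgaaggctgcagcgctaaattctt
Pparg downstream window, chr6:115421816-115422115, plus strand: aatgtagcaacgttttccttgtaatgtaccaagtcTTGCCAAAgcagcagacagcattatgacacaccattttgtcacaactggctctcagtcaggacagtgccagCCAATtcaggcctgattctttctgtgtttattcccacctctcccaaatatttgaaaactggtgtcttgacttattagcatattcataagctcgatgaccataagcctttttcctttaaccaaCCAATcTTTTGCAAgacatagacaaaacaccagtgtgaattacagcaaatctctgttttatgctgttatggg

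The windows differ in base composition and in the letters found. The upstream window is 80.3% G or C and holds 1 match, a nuclear receptor half-site starting at -28 from the start site. The middle window, 1205 bases further, is 62.7% G or C and begins the GENCODE transcripts Pparg-203, Pparg-204 and Pparg-206. It holds matches to the TATA box at -29 and the CCAAT box at -83, both on the minus strand, opposite to the gene. A nuclear receptor half-site lies at -9 on the plus strand. The downstream window lies 59717 bases beyond the middle one, is 40.3% G or C and begins Pparg-201. It alone among the Pparg windows holds the C/EBP core, at -215 and, on the minus strand, at -16, and it holds the CCAAT box at -144 and -22. No matches overlap in these windows. Of 32851 windows of this length, 10.8% hold the C/EBP core, 37.4% the CCAAT box, 16.3% the nuclear receptor half-site and 13.6% the TATA box. The glucocorticoid receptor half-site (in 19% of all windows) and the RUNX site (16.8%) match nowhere in the 3 windows, nor do 2 nuclear receptor half-sites in tandem spaced by 1 base (0.0396%). A match describes letters only and does not show that a factor binds there.

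Pparg had 222, 287 and 328 gene reads in Wild-type replicates 1 to 3 and 114, 260 and 162 in Fam102a KO replicates 1 to 3. Scaled to library size these were 18.8, 16.3 and 17.0 CPM in Wild-type and 8.20, 12.8 and 8.69 CPM in Fam102a KO. The Wild-type libraries lay close together, and Fam102a KO replicate 2 was the nearest to them. The mean was 17.4 CPM ± 1.32 (SD, n = 3) in Wild-type and 9.91 ± 2.55 in Fam102a KO, a log2 fold change of -0.80 (SE 0.188, edgeR unadjusted p = 0.00217, adjusted p = 0.346). Without overlap between groups, the exact permutation test over the 20 assignments gave p = 0.1, the smallest it can give. With labels swapped only within same-numbered libraries the exact test gave p = 0.25, the smallest of its 8 assignments. Of all genes tested, 5.61% were separated in this direction and 5.48% in the other. In a bulk library, fewer cells that express a gene and less RNA of it per cell cannot be told apart. The intron share of all gene reads in Fam102a KO replicate 2 (53.2%) also lay within the Wild-type range. Those of Fam102a KO replicates 1 and 3 (46.4 and 45.8%) lay below it. The part of this share in the Pparg result was not tested.

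The difference in Pparg was present in each kind of read. In exon reads the log2 fold change was -0.94 (SE 0.252, edgeR unadjusted p = 0.00461, adjusted p = 0.398), again with every Fam102a KO library below every Wild-type library, as in 5.69% of genes tested. Intron reads, which come largely from unspliced RNA, gave -0.65 (SE 0.193, unadjusted p = 0.00422, adjusted p = 0.653), and the groups were again apart, as in 4.99% of 12777 genes. Reads that spanned an exon junction of Pparg numbered 28, 37 and 51 in Wild-type and 6, 23 and 18 in Fam102a KO replicates 1 to 3. These spliced reads were fewer in every Fam102a KO library, and introns held 49.1% of Pparg reads in Wild-type and 54.3% in Fam102a KO. Among the 9 genes, 3 had enough intron reads for the test, all 3 had a negative log2 fold change, and 2 of them, Pparg and Cd36, had an unadjusted p under 0.05, beside 2.46% of genes tested in that direction. None passed the adjusted p (background 0.00783%).

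Same-numbered libraries gave the same direction for Pparg. The Fam102a KO library had 0.435 times the Wild-type CPM in replicate 1, 0.789 times in replicate 2 and 0.511 times in replicate 3. The smallest difference was thus in replicate 2. Under 19 alternative settings the log2 fold change ran from -1.04 to -0.58, with an unadjusted p under 0.05 in all 19, and it passed the adjusted p in 1 of them, without a filter on low counts (edgeR adjusted p = 0.00178, range over the alternatives 0.00178 to 1). DESeq2 gave an adjusted p of 0.0565. Replicates 2 and 3 of both genotypes carry a run label that replicate 1 lacks, and whether replicate 1 was run separately is not stated. With replicates 2 and 3 alone the log2 fold change of Pparg was -0.63 (edgeR unadjusted p = 0.0278, adjusted p = 0.933).

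No 50-base stretch of the annotated Pparg transcripts occurred in a transcript of another gene, and 83.0% of its gene reads were uniquely placed. The antisense gene Gm44079 at this locus had 0 to 2 reads per library. The 5 genes whose level over the 6 libraries was most like that of Pparg, by Pearson r of log2(CPM + 0.5) among 14619 genes, were Arhgdib (r = 0.996), Cpne8 (0.994), Sox6 (0.990), Rn7s1 (0.986) and Iqck (0.981). Sox6 encodes a factor of cartilage formation. Rn7s1, a 7SL RNA of the signal recognition particle, took 15.8 to 16.6% of all gene reads in Wild-type and 9.66 to 13.3% in Fam102a KO libraries. Its share moved with the genotype, and its part in the Pparg result was not tested. These r are a description over 6 libraries that share a library preparation and a group difference. They were picked as the highest among 14619 genes, so their height is partly a matter of selection. The 5 genes had log2 fold changes of -0.23, -0.66, -1.10, -0.61 and -0.12 in the order above. Their edgeR unadjusted p were 0.0560, 0.00260, 0.0135, 0.0258 and 0.610.

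**Figure D2:**
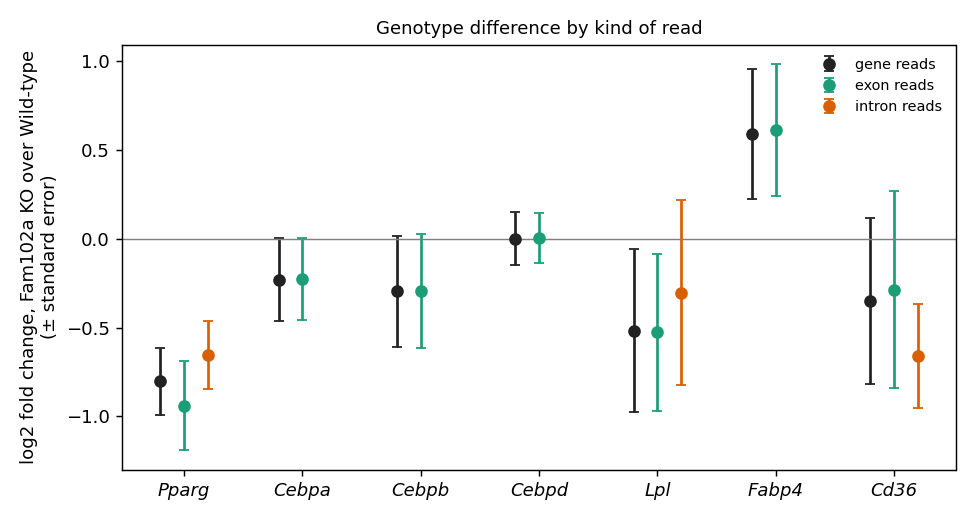
Log2 fold change of Fam102a KO over Wild-type with its standard error in edgeR's quasi-likelihood fit, for the 7 genes tested in gene and exon reads and the 3 tested in intron reads. Pparg lies lowest in gene reads (-0.80) and in exon reads (-0.94), while Cebpd is at 0.00 in both.

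Cebpb (ENSMUSG00000056501, chr2:167688915-167690418) and Cebpd (ENSMUSG00000071637, chr16:15887286-15891031) encode the early C/EBP factors and have no introns. Cebpb had 186, 357 and 211 gene reads in Wild-type and 226, 285 and 149 in Fam102a KO replicates 1 to 3, or 15.8, 20.3 and 10.9 against 16.2, 14.1 and 7.99 CPM. The groups overlapped, and replicate 3 was the lowest library in each genotype. The log2 fold change was -0.30 (SE 0.312, edgeR adjusted p = 1.00). Only 56.6% of Cebpb reads were uniquely placed. Of the 50-base stretches of Cebpb, 18.1% are also found on the opposite strand of Tmem189 transcripts. Tmem189 had 358 to 813 gene reads per library, so its reads and those of Cebpb may be divided uncertainly.

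Cebpd had 268, 570 and 527 gene reads in Wild-type and 373, 507 and 572 in Fam102a KO replicates 1 to 3. In CPM these were 22.7, 32.3 and 27.3 against 26.8, 25.0 and 30.7. It varied least of the 7 genes, with a highest library 1.42 times the lowest, and the genotypes overlapped throughout. Its log2 fold change was 0.00 (SE 0.149, edgeR adjusted p = 1.00) and its sign depended on the setting. Spidr, on the opposite strand, shares 13.7% of the 50-base stretches of Cebpd, while 93.4% of Cebpd reads were uniquely placed.

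Cebpa (ENSMUSG00000034957, chr7:35119293-35121928) encodes C/EBPα, which with PPARγ sustains the fat cell program and which also acts in myeloid cells. It had 237, 600 and 412 gene reads in Wild-type and 238, 436 and 479 in Fam102a KO replicates 1 to 3. In CPM these were 20.1, 34.0 and 21.3 against 17.1, 21.5 and 25.7. Wild-type replicate 2 stood above the other 5 libraries, which overlapped. The log2 fold change was -0.23 (SE 0.232, edgeR adjusted p = 1.00), and without Wild-type replicate 2 it was 0.05.

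RefSeq windows were also found for Cebpa and Cebpb, and for Adipoq, Plin1 and Cd36, so that 6 of the 9 genes had 8 windows in all. The Cebpa window holds the TATA box at -30. The Cebpb window, 80.7% G or C, holds it at 21, downstream of the listed start. The C/EBP core was found in the Plin1 window at -187 and -58, and in no window of Adipoq, Cd36, Cebpa or Cebpb. Adipoq has 3 matches to the CCAAT box, and Cd36 has 1 to that box and 1 to the nuclear receptor half-site.

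Lpl (ENSMUSG00000015568, chr8:68880491-68907448) encodes lipoprotein lipase, which frees fatty acids from circulating triglyceride and is made by fat and muscle cells as well as macrophages. It had 191, 580 and 357 gene reads in Wild-type and 127, 259 and 471 in Fam102a KO replicates 1 to 3. In CPM these were 16.2, 32.9 and 18.5 against 9.13, 12.8 and 25.3. The SD within each genotype was larger than the difference between the means, and Fam102a KO replicate 3 lay above both of the lower Wild-type libraries. The mean was 22.5 CPM ± 9.05 (SD, n = 3) in Wild-type and 15.7 ± 8.45 in Fam102a KO, a log2 fold change of -0.52 (SE 0.457, edgeR adjusted p = 1.00). Without Fam102a KO replicate 3 it was -1.04 (unadjusted p = 0.0267, adjusted p = 0.456), and without Wild-type replicate 2 it was -0.14.

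Cd36 (ENSMUSG00000002944, chr5:17781690-17888801) encodes a fatty acid and lipoprotein receptor of fat cells, macrophages and capillary endothelium. It had 90, 374 and 199 gene reads in Wild-type and 79, 250 and 236 in Fam102a KO replicates 1 to 3. In CPM these were 7.64, 21.2 and 10.3 against 5.68, 12.3 and 12.7. The order of the libraries resembled that of Cebpa, with Wild-type replicate 2 highest and Fam102a KO replicate 1 lowest. The log2 fold change was -0.35 (SE 0.467, edgeR adjusted p = 1.00), and without Wild-type replicate 2 it was 0.19. Its intron reads, 16.5% of all its reads, gave -0.66 (SE 0.292, unadjusted p = 0.0405, adjusted p = 0.942), with groups that overlapped.

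Fabp4 (ENSMUSG00000062515, chr3:10204088-10208576) encodes the fatty acid binding protein of fat cells, which macrophages and endothelial cells also make. It is a known target of PPARγ. It had 69, 59 and 52 gene reads in Wild-type and 75, 168 and 73 in Fam102a KO replicates 1 to 3, or 5.85, 3.35 and 2.69 against 5.39, 8.30 and 3.91 CPM. Fam102a KO replicate 2 stood highest, and the other 5 libraries overlapped. The log2 fold change was 0.59 (SE 0.367, edgeR unadjusted p = 0.145, adjusted p = 0.976), opposite in sign to that of Pparg. Without Fam102a KO replicate 2 it was 0.24, and without Wild-type replicate 1 it was 0.96 (unadjusted p = 0.0316, adjusted p = 0.735). Nearly all Fabp4 reads (99.2%) were uniquely placed.

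Adipoq (ENSMUSG00000022878, chr16:23146536-23158028) encodes the hormone adiponectin, and Plin1 (ENSMUSG00000030546, chr7:79720218-79732903) encodes perilipin 1, which coats the fat droplet. Adipoq had 4, 11 and 3 gene reads in Wild-type and 0, 11 and 0 in Fam102a KO replicates 1 to 3. Plin1 had 1, 7 and 6 against 5, 4 and 0. A library with 0 reads allows up to 3 reads, which is 0.216 CPM in Fam102a KO replicate 1 and 0.161 CPM in replicate 3. Summed over each genotype and scaled to library size, the ratio of Fam102a KO to Wild-type was 0.564 (95% counting interval 0.241 to 1.26) for Adipoq and 0.593 (0.226 to 1.47) for Plin1. These intervals cover counting error only, and a difference was not detectable at this depth in either gene. Over all 6 libraries 1 Adipoq read and 1 Plin1 read crossed an exon junction.

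The libraries differed among themselves in a way that 3 of the genes had in common. Over the 6 libraries the Pearson r was 0.953 between Cebpa and Cd36, 0.93 between Cebpa and Lpl and 0.844 between Lpl and Cd36. Each of these was highest in Wild-type replicate 2 and lowest in Fam102a KO replicate 1. Pparg had r of 0.261 with Cebpa, 0.342 with Lpl and 0.294 with Cd36, and Fabp4 had negative r with all 3 of them (-0.454, -0.631 and -0.342). These values describe 6 points with a group difference in them and were not tested.

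In exon reads, markers of macrophages had the same high and low libraries. Of 13 such markers, 12 were measured and all 12 passed the filter in exon reads. By exon CPM, 11 of the 12 were highest in Wild-type replicate 2 and all 12 were lowest in Fam102a KO replicate 1. Their summed exon level was 2100, 5903 and 2103 CPM in Wild-type and 1058, 3399 and 4657 CPM in Fam102a KO replicates 1 to 3, so the genotypes overlapped (exact permutation p = 1). Csf1r, the receptor for M-CSF and a defining marker, had 698, 3289 and 1123 gene reads against 435, 1806 and 1756. In gene reads 1 of the 12 had a positive and 11 a negative log2 fold change, and none had an unadjusted p under 0.05. Fcgr3 did not share the library pattern in gene reads. Its mean was 2273 CPM ± 93.7 (SD, n = 3) in Wild-type and 2120 ± 162 in Fam102a KO. Pparg was also lowest in Fam102a KO replicate 1, and highest in Wild-type replicate 1. The part of these cells in the levels of Pparg, Cebpa, Lpl and Cd36 was not tested.

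**Figure D3:**
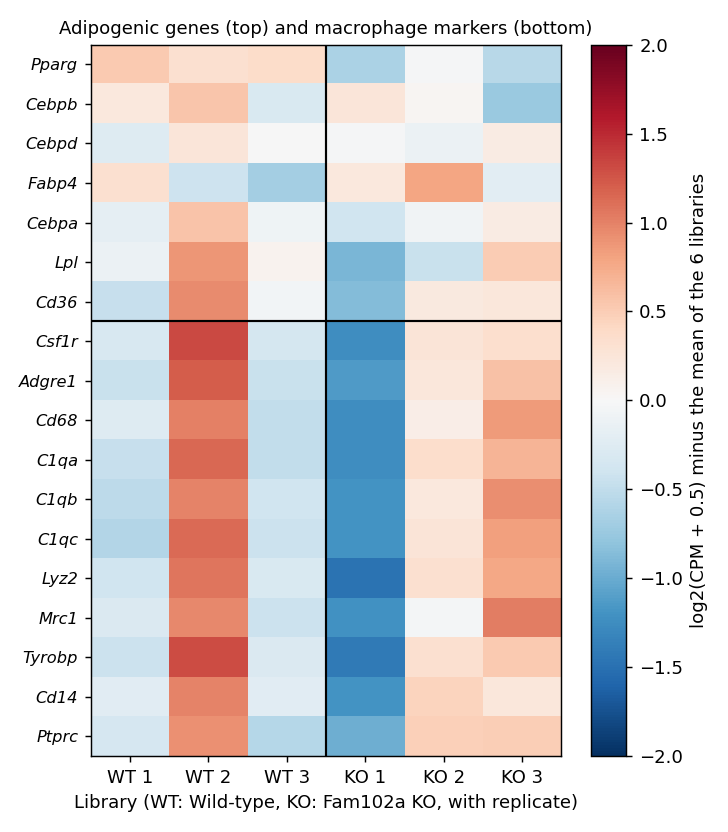
Log2(CPM + 0.5) of gene reads minus the mean of the 6 libraries, for the 7 adipogenic genes tested (above the line) and 11 macrophage markers (below it, Fcgr3 not drawn), in Wild-type (WT) and Fam102a KO (KO) replicates 1 to 3. Cebpa, Lpl and Cd36 are high in WT 2 and low in KO 1, as the macrophage markers drawn are, while Pparg is divided by genotype. Fcgr3 varied little between libraries in gene reads and did not share this pattern.

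Other cell type markers were measured in the same way on exon reads. Adipose progenitor markers summed to 964 to 1102 CPM in Wild-type and 999 to 1050 CPM in Fam102a KO, with overlap. Endothelial markers, whose cells can also make Fabp4 and Cd36, were low, at 21.2 to 27.7 CPM in Wild-type and 14.98 to 27.0 CPM in Fam102a KO. Skeletal muscle markers reached 49.4 to 83.4 CPM and 80.4 to 138 CPM, and Myod1 and Myog had at most 3 reads in any library. Osteoblast markers summed to 28818 to 37461 CPM and 31728 to 34052 CPM, against 195 to 301 CPM and 166 to 217 CPM for the 9 genes together. These sums are not scaled for gene length and do not compare cell types. In gene reads Col1a1 (mean 6950 CPM) and Col1a2 (9032 CPM) held most of the Wild-type osteoblast sum of 14774 to 18265 CPM. In gene reads 9 osteoblast markers were tested, 5 with a positive and 4 with a negative log2 fold change. None passed the adjusted test. Before adjustment, 3 were lower with p under 0.05 and none was higher, beside 3.12% and 2.92% of all genes. The 3 were Alpl, encoding alkaline phosphatase (-1.67, edgeR adjusted p = 0.161), Sp7, encoding osterix (-0.98, adjusted p = 0.193), and Runx2 (-0.40, adjusted p = 0.603). Each of the 3 was lower in every Fam102a KO library than in any Wild-type library, as Pparg and 5.61% of all genes tested were. Dmp1 (0.70, edgeR unadjusted p = 0.0860), Phex (0.38), Spp1 (0.27) and Ibsp (1.35) went the other way. Ibsp had 17, 12 and 5 gene reads in Wild-type and 3, 105 and 4 in Fam102a KO replicates 1 to 3. Its value thus came from Fam102a KO replicate 2, and the other Fam102a KO libraries lay below every Wild-type library in reads. The groups of Dmp1, Phex, Spp1 and Ibsp overlapped and none had an unadjusted p under 0.05. The collagen genes Col1a1 (0.00) and Col1a2 (0.02), which had the most reads of the list, did not pass either. Chondrocyte markers summed to 4230 to 5408 CPM in Wild-type and 2099 to 4540 CPM in Fam102a KO. In gene reads 7 of these were tested, 1 with a positive and 6 with a negative log2 fold change. Before adjustment, 1 was higher and 2 were lower with p under 0.05, beside 2.92% and 3.12% of all genes. Comp, a cartilage matrix protein, was lower and passed the adjusted test (log2 fold change -1.51, edgeR adjusted p = 0.026). Col9a1 was also lower (-1.38, edgeR unadjusted p = 0.0145, adjusted p = 0.668). Col10a1 went the other way (1.56, edgeR unadjusted p = 0.0439, adjusted p = 0.801). Of 9 progenitor markers, all tested in gene reads, 3 had a positive and 6 a negative log2 fold change. Before adjustment, 1 was lower with p under 0.05, beside 3.12% of all genes. It was Icam1 (-0.33, edgeR adjusted p = 0.761). Of 8 muscle markers 3 were tested, all 3 with a positive log2 fold change. Before adjustment, 1 was higher with p under 0.05, beside 2.92% of all genes. It was Des (0.62, edgeR adjusted p = 0.816). The part of these cell types in the Pparg result was not tested.

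Further regulators that promote adipogenesis were little different between genotypes. Of 18, all tested, 5 had a positive and 13 a negative log2 fold change, with a median of -0.09. None passed the adjusted test. Before adjustment, 1 was lower with p under 0.05 and none was higher, beside 3.12% and 2.92% of all genes. That gene was Nr3c1, the glucocorticoid receptor, at 77.5, 73.7 and 66.0 CPM in Wild-type and 60.1, 57.1 and 60.3 CPM in Fam102a KO replicates 1 to 3. Its groups were apart, as in 5.61% of genes tested, with a log2 fold change of -0.29 (SE 0.103, edgeR unadjusted p = 0.0203, adjusted p = 0.712). Klf15 (-0.59) and Stat5a (-0.29), which act upstream of Pparg, and Stat5b (-0.14) had unadjusted p of 0.118, 0.0866 and 0.238.

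Of 10 inhibitors of adipogenesis, 2 had a positive and 8 a negative log2 fold change, and 1 in each direction had an unadjusted p under 0.05. All genes tested gave 2.92% higher and 3.12% lower. Nr2f2, which encodes COUP-TFII, a repressor of Pparg, was higher (log2 fold change 0.35, edgeR unadjusted p = 0.0266, adjusted p = 0.760). Klf2, which also represses Pparg in preadipocytes, was lower (-0.58, unadjusted p = 0.0258, adjusted p = 0.757). Their directions thus differed. The family relatives Ppara (-0.30, unadjusted p = 0.267), Ppard (0.02), Cebpg (-0.08) and Cebpz (0.05) did not pass at that level, and Cebpe had 0 to 2 reads per library.

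Of 26 other genes of mature fat cells, 16 passed the filter, 9 with a positive and 7 with a negative log2 fold change, and none had an unadjusted p under 0.05. The 4 smallest p were those of Slc2a4 (-0.64, unadjusted p = 0.0591), the insulin-responsive glucose transporter, Mgll (0.26, 0.0908), Scd1 (0.21, 0.0953) and Acsl1 (-0.23, 0.133). The 10 genes below the filter included Lep, Retn, Cfd and Ucp1, each with 0 to 4 reads per library.

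Of 6 Fabp relatives, 3 were tested and all 3 had a positive log2 fold change, 2 of them with an unadjusted p under 0.05, beside 2.92% of all genes, and none past the adjusted test. Fabp5, the fatty acid binding protein of skin and macrophages, had 27.2, 28.7 and 17.4 CPM in Wild-type and 32.0, 55.0 and 38.8 CPM in Fam102a KO replicates 1 to 3. The groups did not overlap, as in 5.48% of genes tested in this direction (log2 fold change 0.78, SE 0.255, edgeR unadjusted p = 0.0177, adjusted p = 0.693). Fabp7, the brain form, had 27, 9 and 28 gene reads against 48, 105 and 40 (1.38, unadjusted p = 0.0301, adjusted p = 0.761), and Fabp3, the heart form, gave 0.62 (unadjusted p = 0.0867). Fam102a KO replicate 2 was the highest library for Fabp4, Fabp5 and Fabp7 alike.

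Among 4 relatives of Plin1, 3 were tested, 2 with a positive and 1 with a negative log2 fold change. Before adjustment, 1 was lower with p under 0.05, beside 3.12% of all genes. This was Plin4, with a log2 fold change of -0.69 (edgeR unadjusted p = 0.0475, adjusted p = 0.816). Every Fam102a KO library lay below every Wild-type library, as in 5.61% of genes tested. Plin2 (0.29) and Plin3 (0.09), which coat droplets in many cell types, had unadjusted p of 0.167 and 0.545. Of 10 genes for lipase handling and lipoprotein uptake, 8 were tested, 4 in each direction, and none had an unadjusted p under 0.05. Gpihbp1, which holds lipoprotein lipase on capillary walls, had 0 to 2 reads per library. Of 3 adiponectin receptors, all tested, 2 had a positive and 1 a negative log2 fold change. Only Cdh13, encoding T-cadherin, had an unadjusted p under 0.05, beside 2.92% of all genes in this direction. It had 16.3, 14.4 and 14.7 CPM in Wild-type and 21.4, 22.9 and 21.3 CPM in Fam102a KO replicates 1 to 3. The groups did not overlap, as in 5.48% of genes tested (log2 fold change 0.53, SE 0.116, edgeR unadjusted p = 0.00135, adjusted p = 0.289). Adipor1 (0.11) and Adipor2 (-0.05) had unadjusted p of 0.308 and 0.716.

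The medium held dexamethasone, which induces adipogenic and osteogenic genes through the glucocorticoid receptor. Of 10 genes known to respond to glucocorticoids, 1 had a positive and 9 a negative log2 fold change, with a median of -0.22. None passed the adjusted test. Before adjustment, 3 of the 10 were lower with p under 0.05 and none was higher, beside 3.12% and 2.92% of all genes. Tsc22d3, which encodes GILZ, had 249, 247 and 287 CPM in Wild-type and 182, 173 and 169 CPM in Fam102a KO replicates 1 to 3. Its groups were apart, as in 5.61% of genes tested in this direction (log2 fold change -0.58, SE 0.115, edgeR unadjusted p = 0.000744, adjusted p = 0.232). GILZ is known to repress Pparg.

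Zbtb16 had 68.0, 67.0 and 64.9 CPM in Wild-type and 49.0, 35.0 and 55.3 CPM in Fam102a KO (-0.52, edgeR unadjusted p = 0.00968, adjusted p = 0.605). Sgk1, a kinase gene, had 258, 250 and 265 against 206, 204 and 154 CPM (-0.45, unadjusted p = 0.00999, adjusted p = 0.616). Both were lower in each Fam102a KO library than in any Wild-type library, as 5.61% of genes tested were. Mt2 (-0.60) had an unadjusted p of 0.0781. The summed level of the 10 genes was 982, 950 and 957 CPM against 801, 731 and 705 CPM, with no overlap (exact permutation p = 0.1, the smallest possible, and 0.25 within same-numbered libraries, again the smallest possible). Most of this difference lay in Tsc22d3 (mean 261 against 175 CPM), Sgk1 (257 against 188) and Zbtb16 (66.6 against 46.4). Every other gene of the list overlapped between genotypes. The list was chosen with earlier results of these data known, so the sum is no separate support. Over 19 alternative settings, chosen for this list after its values were seen, 2 to 4 of the 10 were lower at that p and 7 to 9 had a negative log2 fold change.

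**Figure D4:**
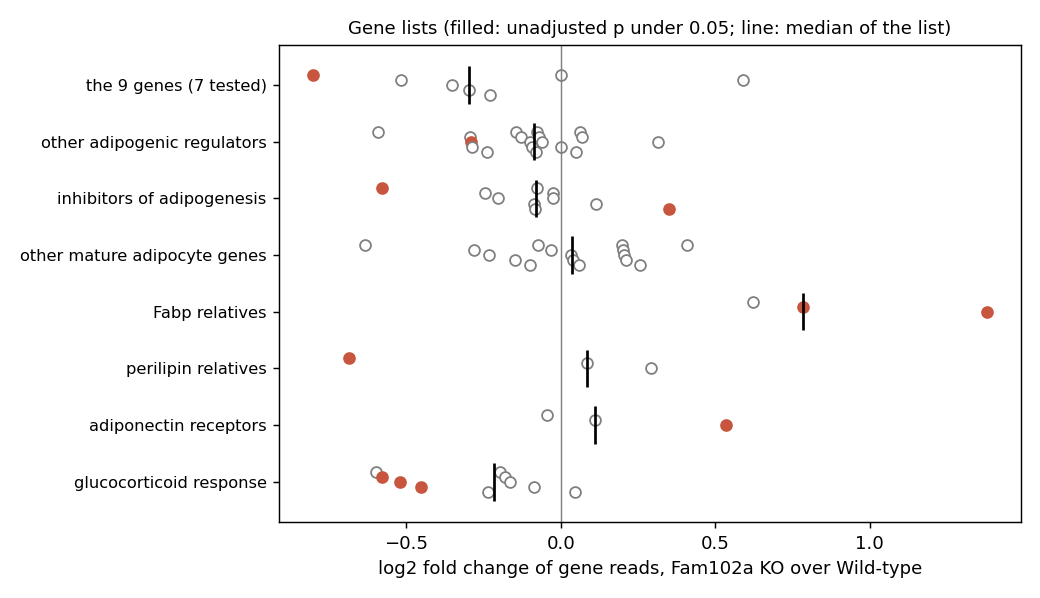
Log2 fold change of gene reads for each tested gene of 8 lists, as 1 point per gene, filled where the unadjusted edgeR p is under 0.05, with a line at the median of the list. The glucocorticoid response genes lie mostly below 0 (median -0.22) and the 3 Fabp relatives above it.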

How the data were processed

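Total RNA was converted to cDNA with a SMART-seq kit, sequenced on an Ion Proton instrument, and mapped and counted by the authors with CLC Genomics Workbench on mm10. Mapping settings, annotation release and use of strand: not given in the sources used here. Deposited were counts of reads per gene (gene, exon, junction and uniquely placed reads) and RPKM that the authors computed from exon reads. Intron reads were taken as gene minus exon reads. Groups followed the genotype label, 3 libraries each.

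Counts were fitted in edgeR 4.0.16 (R 4.3.3) with filterByExpr (minimum count 10, total 15), TMM factors and a robust quasi-likelihood test, adjusted by Benjamini-Hochberg over all genes tested. Standard errors were derived from the test statistic. A common biological coefficient of variation of 0.221 was estimated. The study names a two-group unpaired test, so no block was used. Alternatives were other size factors, DESeq2 1.42.0, other filters, limma 3.58.1 on log2(RPKM + 0.1) and log2(RPKM + 1), uniquely placed reads, replicates 2 and 3 only, each library left out, and a replicate block. Deviations from the group means correlated weakly between same-numbered libraries (r = 0.264, 0.190 and 0.228 over 14619 genes, others -0.269 to 0.0719). The labels state no pairing. Deviations taken within groups of 3 libraries cannot establish one, so tests within same-numbered libraries are given beside the unpaired ones.

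The 9 genes and all lists were chosen with earlier results of these data known. Beyond the 9, the named genes are up to 4 per list with the smallest unadjusted p, any past the adjusted test, the 5 most like Pparg, and Fam102a. The other low or marker genes given (Csf1r, Fcgr3, Col1a1, Col1a2, Phex, Spp1, Ibsp, Myod1, Myog, Lep, Retn, Cfd, Ucp1, Gpihbp1, Cebpe) were named after their values were seen. Gene coordinates are those of the deposited tables, transcript names those of GENCODE M21. The cell type and glucocorticoid sums on exon reads and the permutation within same-numbered libraries were added after seeing the data. Columns of TPM were not used.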

Additional observations from a re-analysis of the deposited data

How the results depend on the processing

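Counts over all genes moved more than those of the 9 genes. In the gene read fit 3 genes were called higher and 5 lower. These became 6 higher with RLE size factors, 47 and 65 with DESeq2, 169 and 171 without a filter on low counts, 1 higher with at least 10 reads in every library, 3 lower without the robust fit, and 8 lower in exon reads. With replicates 2 and 3 only, edgeR called 0 and 0 (451 higher and 402 lower with p under 0.05 before adjustment). limma called 0 and 0 with either pseudocount (1166 and 269 at an unadjusted p with 0.1, 1142 and 271 with 1), where the median log2 fold change of all genes was 0.11 and 0.06. With the replicate block, 5 were higher and 4 lower, Pparg stood at -0.82 (adjusted p = 0.25), and the block changed no call among the 9 genes. Leaving out each library in turn gave 0 to 5 genes higher and 0 to 8 lower.

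Of the 9 genes at an unadjusted p, the count higher was 1 without a filter on low counts, in gene and in exon reads, and 1 with replicates 2 and 3 only in exon reads. It was 0 to 1 over the fits without 1 library, in both kinds of read. The count lower was 1 to 2 over those fits, the 2 being Pparg and Lpl without Fam102a KO replicate 3. Cebpd changed sign with RLE (-0.0001145), upper quartile factors (-0.0046), no filter (-0.0050), replicates 2 and 3 only (-0.10), uniquely placed gene reads (-0.025) and exon reads (-0.0275), and over the fits without 1 library (-0.12 to 0.132, negative without Wild-type replicate 1 or 3 or Fam102a KO replicate 3). Over those fits Cebpa ran from -0.38 to 0.0475 and Cd36 from -0.62 to 0.19, both positive only without Wild-type replicate 2. No cause was tested. Depth limits Adipoq and Plin1, whose 3-read floor was 0.148 to 0.255 CPM per library.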
